A study of Torulaspora delbrueckii with 17 samples.

Results

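The ribosomal DNA (rDNA) of the budding yeast Torulaspora delbrueckii was examined for binding of Orc1 and Kos3, as mapped by chromatin immunoprecipitation and sequencing. The members are all regions in the 15 deposited peak lists that overlapped the rRNA gene array of chromosome 8, 785310 to 808672, or the 5 kb on either side of it. They were chosen by position alone. There were 17 such regions among 5717, and they came from 5 of the 15 lists. The array itself holds 11 of the 5174 genes in the gene table.

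Each rDNA repeat carries the genes of the large rRNA precursor, which RNA polymerase I transcribes and which is processed to the 18S, 5.8S and 25S rRNAs, and a separate 5S gene, which RNA polymerase III transcribes. In Saccharomyces cerevisiae the spacer behind the 25S gene holds the replication fork barrier, where Fob1 binds and brings in the histone deacetylase Sir2 with its partner Net1. The spacer on the 18S side holds a replication origin and the polymerase I promoter. Sir2 is known there to restrain recombination and origin firing in the array. Orc1 is a subunit of the origin recognition complex, and its BAH domain binds nucleosomes. Kos3 belongs to the Sir1-related family, whose members help to establish silent chromatin.

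Orc1 carried a MYC tag and was precipitated from sir2 (strain LRY3206, 2 libraries), kos3 (LRY3205, 1 library), orc1bah (LRY3212, 2 libraries), orc1P179A (LRY3215 and LRY3216, 1 library each) and wild-type strains (LRY3204 and LRY3211, 1 library each). Kos3 carried a V5 tag and was precipitated from orc1bah (LRY3212), orc1P179A (LRY3215 and LRY3216) and wild type (LRY3211), with 2 libraries a group. The orc1bah and orc1P179A strains and the second wild-type Orc1 library had both tags; for sir2, kos3 and the first wild-type Orc1 library the labels give the MYC tag alone. The 2 input libraries came from another, untagged strain, JRY10156. The sir2, kos3 and first wild-type Orc1 lists were called against the first input, and all other lists against the second. Input thus differed between genotypes and within the wild-type Orc1 pair. The series calls the libraries of a pair technical replicates, although the wild-type Orc1 and the orc1P179A pairs come from 2 strains each. The spread within a pair may therefore be technical or lie between strains, and for wild-type Orc1 also between inputs. With 2 against 2 libraries an exact permutation test cannot give a p below 0.333. Groups are therefore set side by side with no p-value.

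The lists held from 33 to 726 regions. They give no read totals. They do give, for each region, a fold enrichment of the immunoprecipitate over local background and a p-value at the summit, and under the formulas of the MACS2 caller these 2 values fix the number of fragments piled up at the summit and the local background. The pileup came out as a whole number, within 0.05, for all 5717 regions. The lowest background of a list, its genome-wide level, lay from 17.2 fragments in the second sir2 list to 21.3 in the first orc1P179A Kos3 list, a range that does not give the depth of the libraries. On chromosome 8 left of the rDNA, the sir2 Orc1 lists held 393 and 411 regions, the orc1P179A Orc1 lists 292 and 435 and the orc1P179A Kos3 lists 681 and 671. The orc1bah lists held 18 and 20 regions there for Orc1 and 2 and 2 for Kos3, the kos3 list held 25, and the wild-type lists held 22 and 25 for Orc1 and 2 and 5 for Kos3.

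In the gene table the array runs from left to right as 25S, 5.8S, 18S and 5S. It has 3 copies of each of 25S, 5.8S and 18S and 2 of 5S, and every copy of a gene starts 8731 bp after the one before it. A pair of long spacers follows each of the first 2 copies of the 18S gene. The one between 18S and 5S is 1589 bp long and lies on the side where the rRNA precursor begins in budding yeasts. The other, between 5S and the next 25S gene, is 1120 bp long and lies behind the end of the 25S gene. How reads that match several copies were placed is not given in the sources used here, so the copies are not independent measurements.

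In wild type, Orc1 was called at 3 places in each list, all of them in spacers or beside the array. Around the first 5S gene (Tdel_RDN5-1, 792800 to 792920) the region spanned 792030 to 793836 in the first library and 792112 to 793759 in the second. Around the second (Tdel_RDN5-2, 801531 to 801651) it spanned 800722 to 802584 and 800865 to 802488. The remaining region lay left of the first 25S gene (Tdel_RDN25-1), at 784559 to 785106 and 784576 to 785004. Each region of one library thus overlapped its counterpart in the other.

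The 25S, 5.8S and 18S genes, 16053 bp in all, held 0 bp of any Orc1 or Kos3 region in any list. The 5S genes were covered in full in all 5 lists with rDNA regions. Of the spacer between 5S and 25S, Orc1 regions covered 75.4% in kos3, and 82.5% and 74.8% in the wild-type lists. Of the spacer between 18S and 5S they covered 40.2% in kos3, and 49.7% and 42.6% in wild type. In both spacers the covered part adjoined the 5S gene. Kos3 regions covered less of both spacers, 7.77% and 25.2% on the 18S side and 13.1% and 31.6% on the 25S side in the 2 wild-type Kos3 lists.

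**Figure D1:**
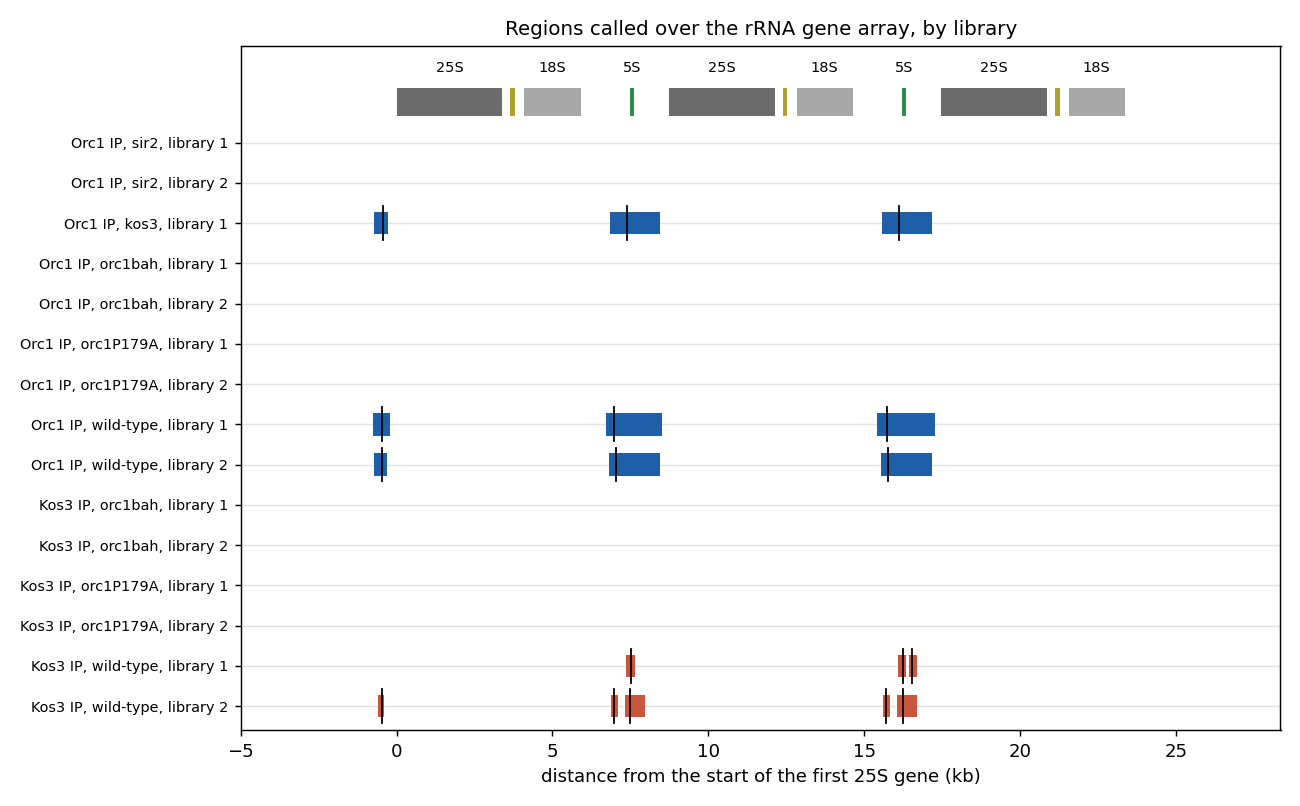
Regions called over the rRNA gene array in the 15 lists, 1 row a list. The x axis is the distance from the start of the first 25S gene in kb, bars are regions (blue for Orc1, red for Kos3) and black ticks their summits; boxes at the top are the rRNA genes, the narrow unlabelled ones being 5.8S. Regions appear in the kos3 list and in the 4 wild-type lists, and the other 10 rows hold 0 regions.

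The 2 repeats gave nearly the same Orc1 pattern within a list. In the wild-type lists the summit lay on the 18S side of the 5S gene, 513 bp from it at the first copy and 479 bp at the second in the first library, and 460 and 462 bp in the second library. In kos3 the summit lay nearer to the 5S gene, at 110 bp for the first copy and 100 bp for the second. The ends of the kos3 regions were close to those of wild type: they began 640 and 637 bp before the 5S gene, against 770 and 809 bp in the first and 688 and 666 bp in the second wild-type library. The kos3 group has 1 library, so its summit position has no replicate check.

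The region left of the first 25S gene matched the same part of a repeat. Moved right by 1 period of 8731 bp, the kos3 region ended within 6 bp of the end of the kos3 region around the first 5S gene. The moved wild-type regions ended within 1 bp of it in the first library and within 24 bp in the second. Its summit lay 448 bp before the 25S gene in kos3, and 459 and 461 bp before it in wild type. For Orc1, calls over the right-hand part of the spacer region thus recurred at each of the 3 25S genes. Calls over the part with the 5S gene recurred at the 2 annotated 5S genes. Whether repeat sequence continues left of the first 25S gene could not be read, so the match there cannot be taken as an independent measurement. The second wild-type Kos3 list also held a region left of the first 25S gene, which began 609 bp before that gene and had its summit 467 bp before it. It had no counterpart in the repeats, where the Kos3 regions of that list ended 756 and 778 bp before the next 25S gene. Right of the last 18S gene, which has no 5S gene after it in the table, no list held a region within 5 kb; the next gene, TDEL0H04510, lies 4648 bp beyond it.

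Kos3 was called at 3 places in the first wild-type library and at 5 in the second, each inside an Orc1 region of both wild-type Orc1 lists. The strongest Kos3 regions had their summits within the 5S genes, 29 and 36 bp from the gene start in the first library and 14 and 14 bp in the second. They spanned 792680 to 792957 and 801404 to 801667 in the first library, and 792644 to 793285 and 801352 to 801994 in the second. These summits lay from 474 to 542 bp nearer to the 25S gene than the wild-type Orc1 summits of the same repeat. The second library had a further Kos3 region in each repeat on the 18S side, with summits 526 and 528 bp from the 5S gene. Those lay within 66 bp of the wild-type Orc1 summits. The first library did not hold them, and had instead a weak region at 801762 to 802001 past the second 5S gene, overlapping the second library's region there. With 3 and 5 regions the mean was 4 ± 1.41 (SD, n = 2), and the covered length was 782 and 1953 bp.

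**Figure D2:**
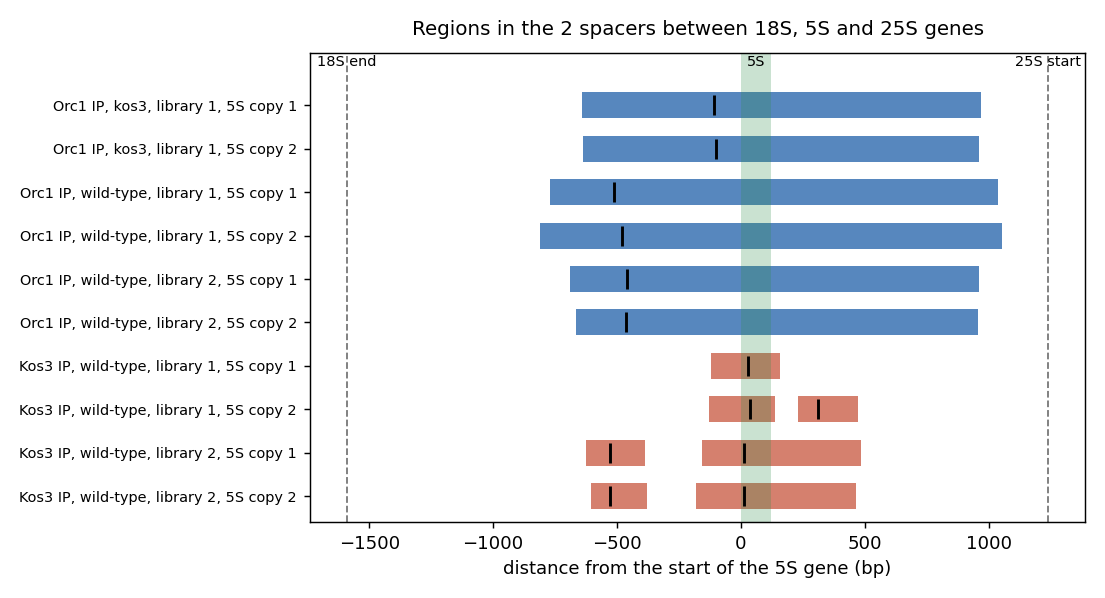
Regions around each 5S gene copy in the kos3 list and the 4 wild-type lists. The x axis is the distance from the 5S gene start in bp, bars are regions (blue for Orc1, red for Kos3), black ticks are summits, the green band is the 5S gene and dashed lines mark the neighbouring 18S and 25S genes. Wild-type Orc1 summits sit from 460 to 513 bp on the 18S side, kos3 Orc1 summits at 110 and 100 bp, and the strongest Kos3 summits inside the 5S gene.

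The Orc1 rDNA regions had low folds, and by −log10 q they lay near the middle of their lists. The fold enrichment is the authors' own value for each peak and is read within its list. Around the first and second 5S gene the Orc1 folds were 2.71 and 2.77 in kos3, 2.999 and 3.044 in the first wild-type list and 2.85 and 2.82 in the second. Left of the first 25S gene they were 2.41 in kos3, and 3.39 and 2.62 in the wild-type lists. By fold, from 21.4% to 30.7% of the regions of the same list lay below an Orc1 rDNA region. By −log10 q, which was 46.3 to 89.4 in kos3, and 108.6 to 112.4 and 66.6 to 109.3 in the 2 wild-type lists, from 39.8% to 58% lay below.

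Regions of like fold elsewhere were far less significant. In the first wild-type Orc1 list, 6 other regions had folds in the range of the rDNA regions, and their highest −log10 q was 21.4. In the second there were 10, with a highest value of 11.8, and in kos3 18, with a highest value of 15.8. The pileup at Orc1 rDNA summits was 363, 562 and 542 fragments in kos3, 499, 577 and 584 in the first wild-type list and 441, 630 and 628 in the second. Among the other regions of like fold the median pileup was 64 fragments in kos3, and 74.5 and 57 in the wild-type lists. The local background at the rDNA was from 7.37 to 11.3 times the genome-wide level of the list in the Orc1 lists, and up to 13.8 times in the Kos3 lists. The highest Kos3 values, 13.1 to 13.8, were at summits within the 5S genes, where no Orc1 summit lay. Left of the first 25S gene the values of the second wild-type lists, called against the same input, were close, 8.47 for Orc1 and 8.34 for Kos3. In the wild-type lists of both proteins the highest background of any region was one at the rDNA.

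Kos3 folds at the rDNA were among the lowest of their lists. They were 1.71, 1.64 and 1.42 in the first wild-type library, where 1.42 was the lowest fold of 105 regions. In the second they lay from 1.59 to 1.90, with from 0.84% to 14.3% of the 119 regions below. The −log10 q, from 6.89 to 35.3, placed them higher, above 55.2% to 82.4% of the regions of their lists. The pileup at the 5S genes was 468 and 464 fragments in the first library and 499 and 495 in the second.

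**Figure D3:**
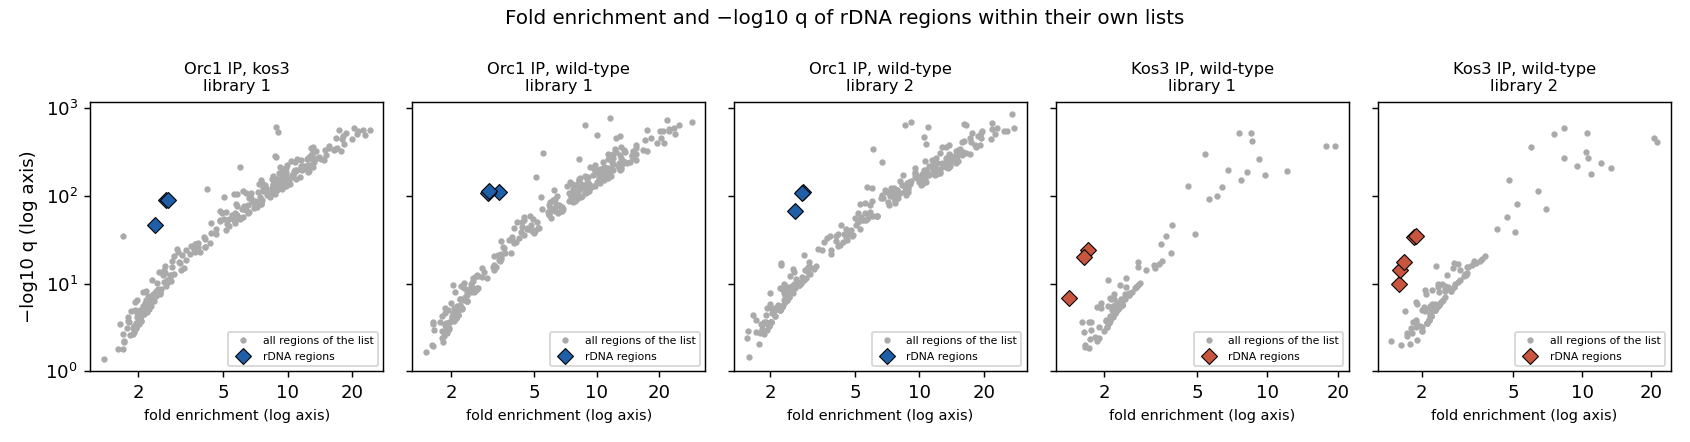
Fold enrichment (x axis, log scale) against −log10 q (y axis, log scale) of every region in the kos3 Orc1 list and in the 4 wild-type lists. Grey points are all regions of a list and diamonds the rDNA regions. The rDNA regions sit above the band of the other regions, with folds of 2.41 to 3.39 for Orc1 and 1.42 to 1.90 for Kos3.

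No region was called at the rDNA in 6 of the 9 Orc1 lists. The sir2, orc1bah and orc1P179A lists each held 0 regions in the window, against 3 in kos3 and 3 ± 0 in wild type (SD, n = 2). The covered length was 0 bp in every sir2, orc1bah and orc1P179A library, 3680 bp in kos3, and 4218 and 3701 bp in wild type. All 3 wild-type Orc1 rDNA regions were missing from both libraries of sir2, of orc1bah and of orc1P179A, and all 3 were found in kos3. Over all 235 wild-type Orc1 regions, 6.38% were missing from both sir2 libraries, 5.11% from the kos3 library, 9.36% from both orc1bah libraries and 5.96% from both orc1P179A libraries. Taking the regions of the first wild-type list alone, these shares were 21.3%, 20.3%, 23.3% and 21.7%; with those of the second alone they were 25.6%, 24.4%, 29.2% and 25.6%. The 3 rDNA regions lie in 1 array and cannot be taken as 3 independent cases.

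In the Kos3 lists the orc1bah and orc1P179A libraries held 0 rDNA regions, against 3 and 5 in wild type. Both Kos3 rDNA regions shared by the 2 wild-type libraries, those at the 5S genes, were missing from every mutant Kos3 library. Of all 62 wild-type Kos3 regions, 61.3% were missing from orc1bah and 50% from orc1P179A, so absence at the rDNA was shared with much of the Kos3 list. Kos3 in sir2 was not analysed here.

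Whether weak regions were lost more often was counted next, with limits taken from the rDNA regions after the data were seen. Among the 232 other wild-type Orc1 regions, 24 had a mean wild-type fold no higher than the highest of the rDNA, 3.01. Of these, 41.7% were missing from sir2, 45.8% from kos3, 54.2% from orc1bah and 33.3% from orc1P179A. By contrast, 160 had a −log10 q of at least 66.6 in both wild-type lists, the lowest value at the rDNA. Of these 160, 1 was missing from sir2, 0 from kos3, 1 from orc1bah and 0 from orc1P179A. A count of 0 would allow a share of up to 1.88%, taken as 3 in 160, if the regions were independent draws. Regions of the same lists are not. The 1 missing region was the same in sir2 and orc1bah, at SLA2 on chromosome 3, 1050692 to 1051876. It had a −log10 q of 98.3 and 185.8 and folds of 7.50 and 12.52. No other wild-type Orc1 region had both a fold as low and a −log10 q as high as the rDNA. At a given fold the −log10 q rises with the background, which was 146.6 to 222.3 fragments at the wild-type Orc1 rDNA regions. Other regions of like fold had at most 29.1 and 26.7 fragments in the 2 wild-type lists. The 2 measures place the locus in different groups, the first with regions often missing and the second with regions rarely missing. They do not decide which group is the fitting comparison.

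**Figure D4:**
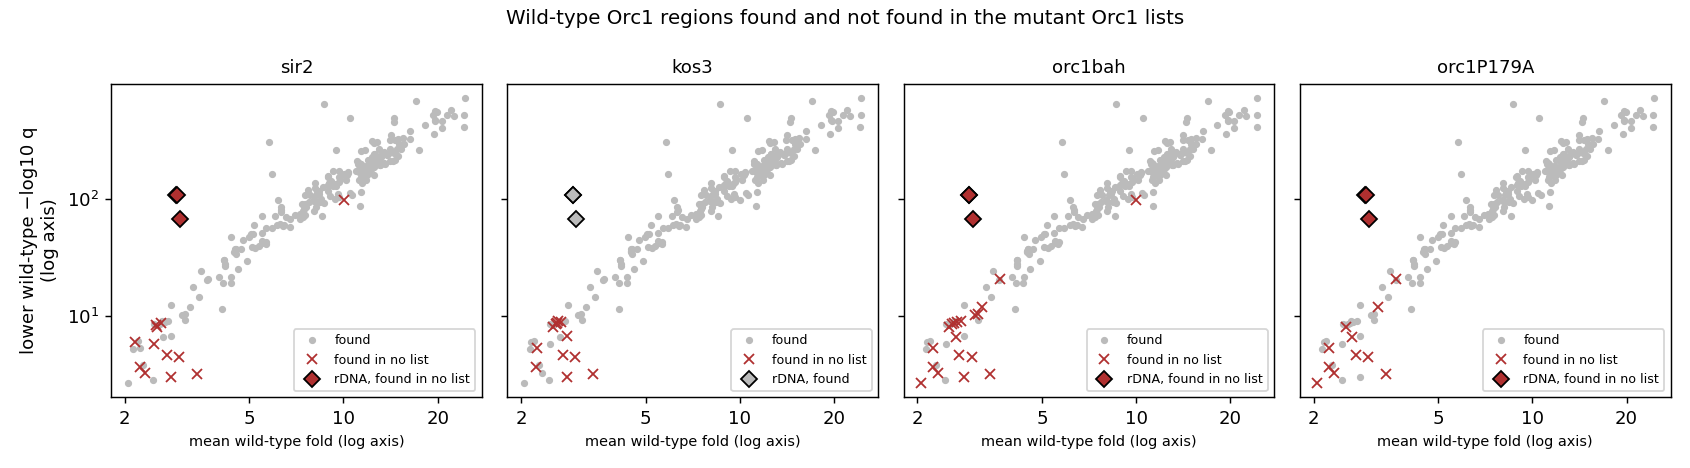
Mean wild-type fold (x axis, log scale) and the lower of the 2 wild-type −log10 q values (y axis, log scale) of the 235 wild-type Orc1 regions, 1 panel for each mutant. Grey circles were found in the mutant, red crosses in none of its lists, and diamonds are the 3 rDNA regions, red where found in no list. The rDNA regions stand apart from the band of other regions and are red in the sir2, orc1bah and orc1P179A panels.

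The calling limit at the rDNA was estimated for the lists without rDNA regions. With the highest rDNA background seen in a list called against the same input, 10.2 or 13.8 times the genome-wide level, the weakest p-value called in each of these 10 lists would have been reached by a pileup of 216 to 375 fragments, a fold of 1.17 to 1.28. The lowest wild-type fold at the rDNA was 2.62 for Orc1 and 1.42 for Kos3. These limits are estimates, since the pileup and the background of these lists at the rDNA are not known. No list held a region narrower than 200 bp. Whether the calling limit has a part in the absent calls was not tested. Each fold sets the DNA of a tagged strain against input DNA of JRY10156, so a lower occupancy and a lower number of rDNA copies in the mutant strains cannot be told apart. In the kos3 and wild-type lists, spacers with regions and rRNA genes without them lay within the same list. For the rRNA genes only the absence of a call is known, and these calls too were made against JRY10156 input.

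Orc1 regions near the array were found in all 9 Orc1 lists. Of the wild-type Orc1 regions, 3 lay within 30 kb to its right and 0 within 30 kb to its left outside the window. The nearest, between TDEL0H04520 and TDEL0H04530 at 817837 to 820921, begins 9165 bp from the array. Its highest fold was 13.9 and 17.3 in the sir2 lists, 7.48 in kos3, 4.69 and 6.41 in orc1bah, 13.6 and 14.96 in orc1P179A, and 8.85 and 12.4 in wild type. The next, a broad one at 821153 to 832448 that several narrower regions of a list can share, had a highest fold of 4.27 and 3.29 in the sir2 lists, 5.19 in the kos3 list, 2.12 and 2.27 in orc1bah, 2.83 and 3.89 in orc1P179A, and 14.9 and 13.3 in wild type. The region at 832854 to 833999, near the right end of the chromosome, was likewise found in every Orc1 list and in every Kos3 list. Its Orc1 folds were 9.56 and 10.5 in the sir2 lists, 9.39 in the kos3 list, 4.10 and 5.23 in orc1bah, 7.22 and 4.93 in orc1P179A, and 12.4 and 15.8 in wild type. In Kos3 its folds were 2.26 and 1.95 in orc1bah, 2.23 and 4.18 in orc1P179A, and 6.10 and 10.9 in wild type. All 3 neighbours were thus still called in the Orc1 lists without rDNA regions; folds of different lists are given side by side and were not tested.

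On the left side, the many regions of chromosome 8 in the sir2 and orc1P179A lists ended short of the array. The last region to its left lay 7627 and 7660 bp away in the sir2 lists and 9219 and 7473 bp away in the orc1P179A Orc1 lists, against 38437 and 38231 bp in wild type. In the Kos3 lists it lay 6769 and 5382 bp away in orc1P179A, against 779028 and 104796 bp in wild type. Right of the window, the Orc1 lists held 10 and 8 regions in sir2, 8 and 11 in orc1P179A, and 9 and 6 in wild type. The Kos3 lists held 7 and 8 there in orc1P179A, and 7 and 9 in wild type. Every sir2 and orc1P179A list had the excess on the left and no rDNA region, and the orc1bah lists had neither. The part of the excess in the absence of rDNA regions was not tested. Just outside the window, the second wild-type Orc1 list held a region at 813679 to 815003, 5007 bp from the array with a fold of 2.75, which is not counted here.

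The same pattern of presence was rare. Over the 9 Orc1 lists, 1 of the 232 other wild-type Orc1 regions was present and absent in exactly the same lists as the rDNA, and 200 were found in all 9. That 1 lay on chromosome 7 at 77684 to 78036 with its summit in FKS3, which encodes a protein related to glucan synthase subunits in S. cerevisiae, with folds of 1.89 and 2.76. Its −log10 q was 3.22 and 9.84, far below the rDNA values. It was also in the first wild-type Kos3 list, but not in the second. Another 6 regions differed from the rDNA in 1 of the 9 lists. Of these, 5 differed by being absent from kos3: between TDEL0C05800 and TDEL0C05810 on chromosome 3, beside TDEL0A00100 at the left end of chromosome 1, in TDEL0F00100 at the left end of chromosome 6, between POX1 and CHC1 on chromosome 4, and in TDEL0B00170 on chromosome 2. The sixth, at SLA2, an actin-patch protein in S. cerevisiae, was in kos3 and in 1 of 2 orc1P179A lists. A further 6 agreed in 7 of 9 lists, and the 3 of them that agreed best over all 15 lists are named here. They lay between UBA2 and IDH2 on chromosome 1 and between TOP3 and TDEL0F05390 on chromosome 6, both found in sir2 and absent from both orc1 alleles, and between TDEL0F00120 and TDEL0F00130 on chromosome 6. Over all 15 lists, 0 regions matched the rDNA in full.

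**Figure D5:**
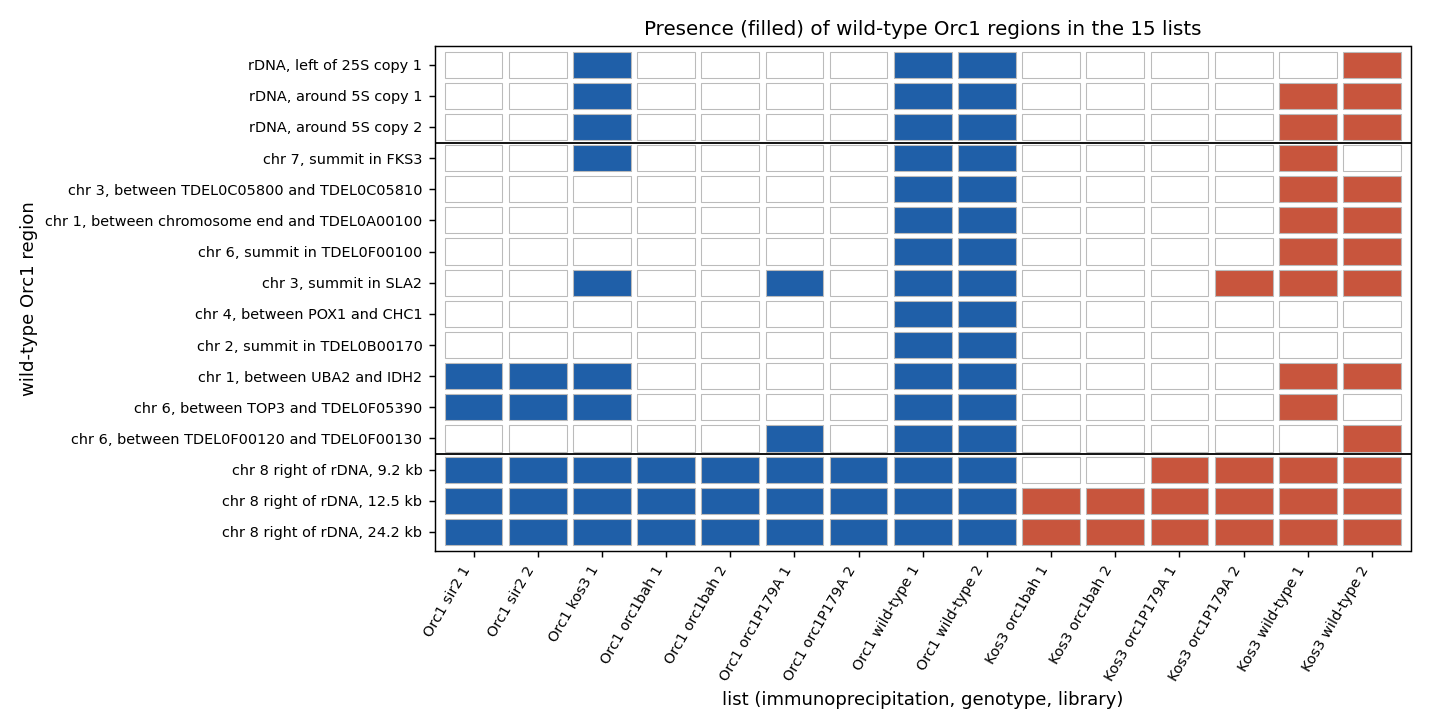
Presence of wild-type Orc1 regions (rows) in the 15 lists (columns), filled where a region of the list overlapped by at least 1 bp (blue for Orc1, red for Kos3). The upper rows are the 3 rDNA regions, the middle rows 10 of the regions most like them over the 9 Orc1 lists, with ties at 7 of 9 lists ordered by likeness over all 15, and the lower rows the 3 nearest regions to the right of the array. The lower rows are filled in all 9 Orc1 columns.

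Other genes of RNA polymerase III were taken as a comparison for the 5S genes. Of the 193 tRNA genes, some lay within 500 bp of 49 wild-type Orc1 regions outside the rDNA. Of these 49 regions, 2 were missing from sir2, 2 from kos3, 2 from orc1bah and 0 from orc1P179A. The share was 4.08% in each of the first 3 groups (Wilson 95% interval 1.13% to 13.7%). For the count of 0 the interval reached 7.27%. The 49 regions were not matched to the 5S regions in fold, with mean wild-type folds up to 22.1. Those missing began at 15526 and 16959 on chromosome 1 and 217035 on chromosome 4, with mean folds of 2.61, 2.58 and 2.52. A difference between 5S and tRNA genes at like fold was not tested. At the 5S genes both Orc1 regions were missing from sir2, from orc1bah and from orc1P179A and both were found in kos3. Wild-type Kos3 had 4 regions near tRNA genes, and 0 of them were missing from either orc1 mutant (Wilson 95% interval up to 49.0%). The intervals cover counting error only, and regions of 1 list are not replicates of a condition.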

How the data were processed

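Per the submitters' processing notes, Bowtie2 2.3.4.1 and MACS2 2.2.7.1 were used; settings and the genome build are not given in the sources used here. Each deposited list holds the peaks of 1 library. The position, the fold (a ratio of immunoprecipitate over background), the −log10 p, the −log10 q and the score of each peak are the authors' values; the score was not used; peak names hold the word subsample. Input assignments follow the file names. Coordinates are 1-based. Gene positions are of assembly ASM24337v1, with the RefSeq entries of the lists taken in ascending order as chromosomes 1 to 8. As a check, strong wild-type Orc1 summits of each chromosome were set against the genes of all 8 chromosomes; the share outside genes was 68.75% or more with the matching genes and at most 62.1% with any other.

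Pileup and background were solved from fold = (pileup + 1) / (background + 1) and the Poisson p-value, and the solution was tested on simulated data; the pileups, the calling bounds and the splits by strength were added after seeing the data. A wild-type region set holds those overlapping by at least 1 bp in both wild-type lists of an immunoprecipitation; a region is missing from a group if no list of that group overlaps it. The other regions named are 10, ranked by likeness to the rDNA in presence over the 9 Orc1 lists, then over all 15 lists, then by mean wild-type fold. Python 3.11.15 with scipy 1.17.1 was used. Members, lists and rules were chosen with earlier results of these data known. Alternatives were thresholds on the −log10 q, overlap of 50% or summits within 200 bp, other flanks, each replicate left out and 1 kb around tRNA genes.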

Additional observations from a re-analysis of the deposited data

How the results depend on the processing

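The number of rDNA regions stayed at 0 in every sir2, orc1bah and orc1P179A list at −log10 q minimums of 5 and 10, with the array alone, with summits inside the window and without either replicate. It stayed at 0 in the second orc1bah Orc1 list and in both orc1bah Kos3 lists, and did not in the others, with 10 kb on either side, a window that takes in neighbouring regions: the mean count and covered length were then 3 and 954 bp in sir2, 0.5 and 153 bp in orc1bah, 3 and 1363.5 bp in orc1P179A and 6 and 6021 bp in wild type for Orc1, and 4 and 1410 bp in orc1P179A for Kos3. With the array alone the length was 3209 bp in kos3 and 3471 bp in wild type, as the region left of the array drops out. With summits within 200 bp, 1 of the 3 wild-type rDNA regions was found in kos3, since its summits at the 5S genes lie elsewhere.

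Without replicate 1 or 2, the share of wild-type regions missing ranged from 21.3% to 25.6% in sir2, 20.3% to 24.4% in kos3, 23.3% to 29.2% in orc1bah and 21.7% to 25.6% in orc1P179A for Orc1, and from 73.3% to 78.2% in orc1bah and 63.8% to 68.9% in orc1P179A for Kos3, as regions of 1 library enter. At a −log10 q minimum of 10 it was 1.90% in kos3 and 65.5% in Kos3 of orc1P179A, at one of 5 it was 48.8% in Kos3 of orc1bah, and counting loss from at least 1 library it was 62.9% in Kos3 of orc1P179A; the cause was not tested. Near tRNA genes, a minimum of 10 gave 0% in kos3 and in orc1bah for Orc1, and 50% in each orc1 mutant for Kos3. Regions with the same presence as the rDNA numbered 0 at a −log10 q minimum of 5, and 2 at one of 10 or with summits within 200 bp. The other 188 of 224 values stayed within 1.5 times, 1 SD or the Wilson interval of the reported one.

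No paired analysis was possible because no result comes from a test. Library totals are not in the lists, which limits depth statements to the pileups at summits.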
